A study of Mus musculus with 11 samples.

Results

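Rab proteins are small GTPases that sit on the membranes of vesicles and organelles, and the set described here comprises all genes whose symbol is Rab followed by a number and, for some, a letter. The deposited transcript tables held 59 such genes among 22196 genes. A member was kept when it had 10 or more reads in at least 5 of the 11 libraries, which left 46 genes. They were read from a fit of all 12813 genes that met the same minimum.

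The libraries were made from the inguinal mammary gland of mice on a normal chow diet, sampled 16 days after delivery with the age label PND16.5. The treatment label lists milk beside the chow, and no label says whether the sampled animals were lactating mothers or young. The 6 Knockout libraries came from mice of the genotype Tsc1-fl/fl; Adipoq-Cre-Tg/+, which lose Tsc1, a brake on the growth kinase complex mTORC1, in fat cells. The 5 Wild-Type libraries came from mice of the genotype Tsc1-fl/fl; Adipoq-Cre-+/+, which carry the same floxed alleles without the Cre transgene. Cre is driven by the adiponectin gene's promoter, so that epithelial, stromal and immune cells of the gland keep Tsc1. The comparison asks which Rab transcripts of the whole gland differ when the fat cells lack Tsc1. The labels name each library as a separate replicate but give no animal, litter or batch, and the p-values measure the spread between these libraries, whatever its source.

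A Rab protein is switched on when an exchange factor (GEF) loads it with GTP, and off when an activating protein (GAP) makes it hydrolyse that GTP. The active form holds effectors, among them tethers, motors and coat adaptors, on the membrane. A geranylgeranyl anchor fixes the protein to the membrane, and GDI proteins lift the inactive form off again. In the secretory epithelium of the mammary gland, vesicle traffic carries milk proteins from the endoplasmic reticulum (ER) through the Golgi to the apical surface, fat leaves as membrane-coated droplets, and antibodies cross the cell by transcytosis. In fat cells, vesicle traffic moves the glucose transporter GLUT4 and lipid droplet proteins.

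Each library held from 25817975 to 37894237 estimated reads. Levels are compared between libraries in CPM (read counts relative to library size, TMM-scaled), and between genes in TPM, which divides by transcript length. Tsc1 itself was at 8.30, 11.9, 9.04, 10.2, 10.1 and 11.2 CPM in Knockout 1 to 6 and at 12.2, 9.78, 10.7, 11.5 and 9.55 CPM in Wild-Type 1 to 5. Its log2 fold change of -0.09 ± 0.11 (± here and below is the SE for fold changes) had an edgeR adjusted p of 0.769, so that Tsc1 in the whole gland is no check of the labels. The 9 adipocyte markers (Adipoq, Plin1, Fabp4, Cfd and others) averaged a sum of 1388 CPM in Knockout (SD 209) against 918 CPM in Wild-Type (SD 129), and the 7 luminal epithelial markers (Krt8, Krt18, Epcam and others) one of 786 CPM (SD 141) against 642 CPM (SD 164). Of the adipocyte markers 8 were higher in Knockout, 5 of them at an unadjusted edgeR p under 0.05, and 1 was lower, at a log2 fold change of -0.82. The 6 B cell markers summed to between 0.808 and 13.8 CPM in Knockout libraries and to 1.93, 52.7, 4.21, 15.8 and 69.8 CPM in Wild-Type 1 to 5. The 5 skeletal muscle markers reached 1986 CPM in Knockout 1 and at most 167 CPM elsewhere. Over the 11 libraries the 11 milk genes summed to between 422157 and 761301 CPM, a large part of all reads, as in a gland making milk. In a whole gland, fewer cells of a type and less RNA per cell cannot be told apart.

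No Rab gene passed the edgeR test between genotypes. At an adjusted p under 0.05 (quasi-likelihood test, Benjamini-Hochberg over all genes), 0 of 46 members were called, where 0.0546% of all genes were called (7 of 12813). At an unadjusted p under 0.05 there were 2 members, Rab17 lower and Rab6a higher in Knockout, or 4.35% of the set, beside 12.5% of all genes. This count depended on the scaling. With library totals in place of TMM it was 10 members (21.7%, 9 of them higher), beside 19.3% of all genes, and with limma on log2(TPM + 1) it was 12 (26.1%, 11 higher), beside 16.4%. DESeq2 called 1 member, Rab17, and 1.16% of all genes. No member had all Knockout libraries on one side of all Wild-Type libraries, a separation found for 1.33% of all genes.

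The Rab fold changes were small. On the log2 scale 39 of 46 were smaller than 0.2 in size, beside 8392 of the 12813 genes tested. The median over the members was -0.01, as over all genes tested. The 95% interval lay within a 1.5-fold change either way for 39 of 46 members, against 63.3% of all genes tested. The members' median spread between libraries of one genotype was 0.17 (SD of log2 CPM), beside 0.24 over all genes tested.

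The signs of these small changes depended on the scaling. With TMM scaling 20 members were higher and 26 lower in Knockout. With library totals alone 40 were higher and 6 lower, and with limma on log2(TPM + 1) the split was again 40 and 6. These scalings moved the median of all genes tested to 0.18 and 0.14 on the log2 scale, and the Rab median to 0.19 and 0.20. Relative to the median of all genes, 24 members were higher and 22 lower with library totals, and 33 and 13 with TPM. Neither called a member. The summed Rab level turned in the same way. In CPM it averaged 998 (SD 52.1, n = 6) for Knockout and 1042 (SD 63.2, n = 5) for Wild-Type. Without TMM scaling these became 1060 (SD 55.5) and 969 (SD 63.1), and in TPM 1318 (SD 122) and 1159 (SD 106). Before any such correction, the 6 members lower under every one of these scalings were Rab17, Rab30, Rab42, Rab3a, Rab4a and Rab23.

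**Figure D1:**
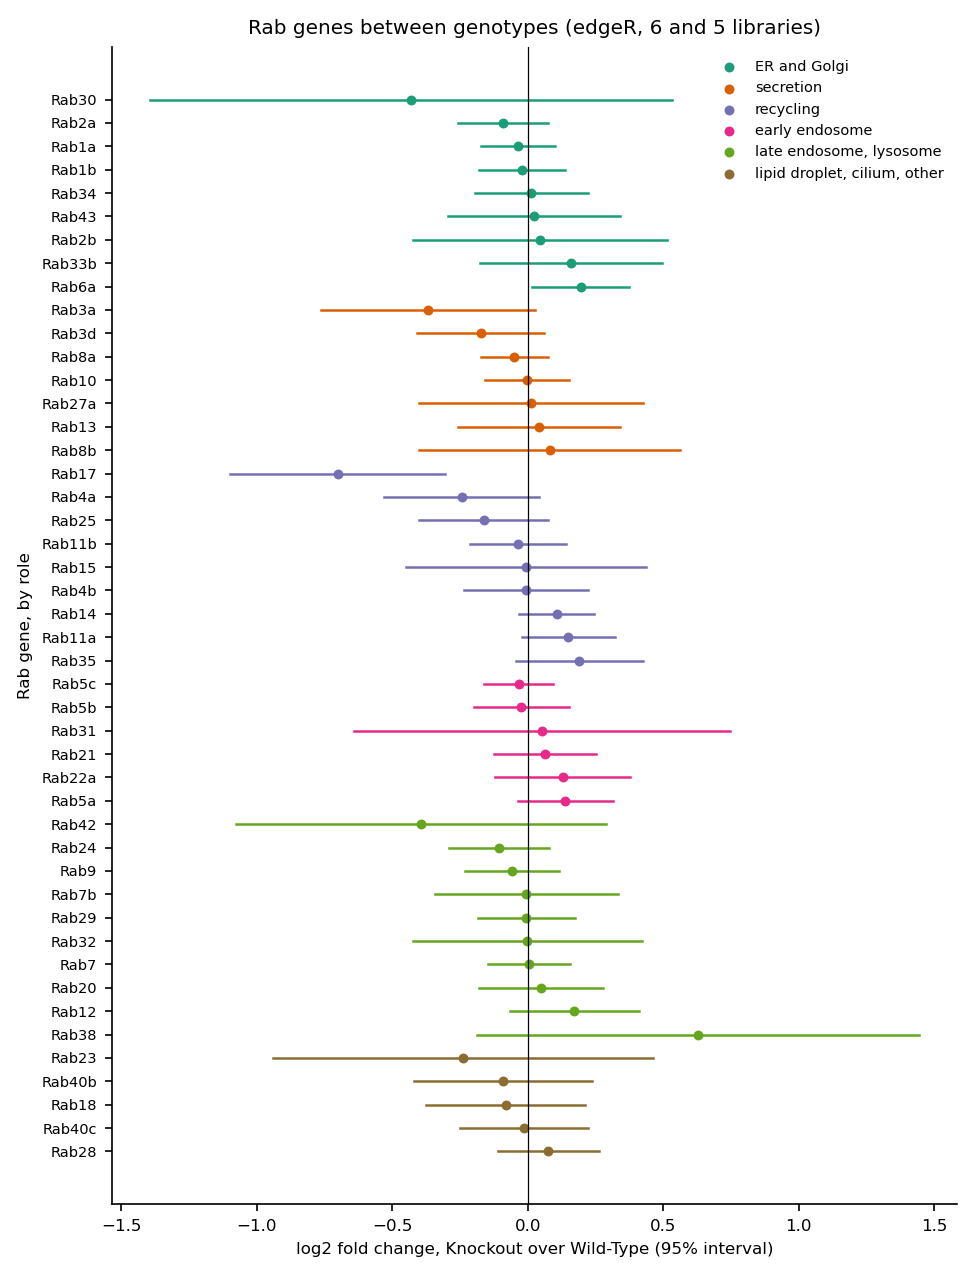
Log2 fold change of Knockout over Wild-Type (x axis) with its 95% interval for the 46 Rab genes, ordered by role (y axis), from edgeR with TMM scaling. The intervals of Rab17 and Rab6a leave out 0, and 44 members reach across it; with other scalings most of the small negative values turn positive, as the text states.

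Rab18 was the most abundant Rab gene of the gland. Its protein sits on the ER and on lipid droplets. Its mean level was 281 TPM (237 to 353 over the 11 libraries), which was 22.7% of all Rab TPM (17.8% to 27.2% by library). Next came Rab1a, which drives traffic from the ER to the Golgi, at 115 TPM (98.5 to 145). The ranges of these neighbours did not overlap. All of the other 44 neighbouring steps in the order of the 46 levels had overlapping ranges. Such overlap between libraries does not show that the order changed within a library. Rab1a was above Rab7 and Rab5c in every library, but in Wild-Type 1 its share of all Rab TPM (8.57%) was below that of Rab30 (8.72%).

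The next levels belonged to Rab7, the GTPase of late endosomes and lysosomes, at 94.5 TPM, to Rab5c of early endosomes at 91.7 TPM, and to Rab30 of the Golgi at 61.4 TPM. These 5 genes held 51.8% of all Rab TPM. Rab2a and Rab1b, both of the ER-Golgi route, followed at 59.1 and 54.9 TPM, then Rab15 of recycling endosomes at 50.5 TPM, Rab24, linked to autophagy, at 39.1 TPM, and Rab11a of recycling endosomes at 34.3 TPM. The least abundant kept members, Rab31, Rab42, Rab38, Rab8b and Rab23, had means from 0.476 to 0.965 TPM.

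Several of these levels rest in part on short transcripts. Rab5c owed 57.7% of its TPM to Rab5c-204, a transcript of 249 bases that took 14.9% of the gene's reads. Rab24 owed 43.9% of its TPM to Rab24-203, which has 351 bases and 18.1% of the reads. Rab7 owed 18.2% and 11.9% of its TPM to Rab7-207 and Rab7-206, of 296 and 267 bases, on 4.76% and 2.54% of the reads, and Rab15 owed 45.7% to Rab15-203, of 501 bases. Counted in reads, Rab5c ranged from 40.2 to 46.9 CPM and Rab7 from 57.6 to 73.4 CPM.

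**Figure D2:**
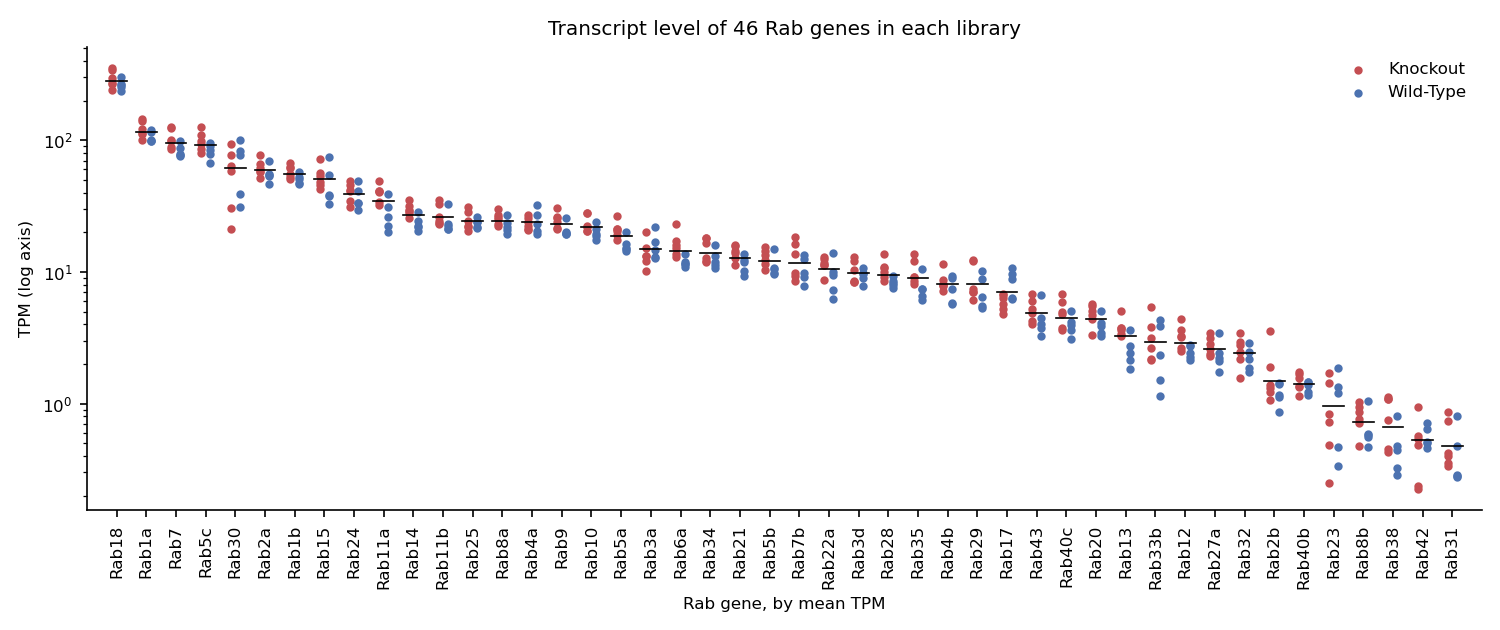
TPM (log axis) of the 46 Rab genes, ordered by mean, with 1 point per library for 6 Knockout and 5 Wild-Type libraries and a black line at the mean over all 11. Rab18 stands above all others, and the points of Rab30 spread from 21.1 to 100.3 TPM.

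In several Rab families 1 paralog carried nearly all of the TPM. Rab6a carried 99.5% of the TPM of its family with Rab6b, Rab9 carried 99.9% with Rab9b, Rab33b 98.2% with Rab33a, Rab2a 97.5% with Rab2b, Rab8a 97.1% with Rab8b, and Rab27a 95% with Rab27b. In other families the second paralog held more. Rab7 held 89.1% with Rab7b, Rab32 78.8% with Rab38, Rab40c 75.7% with Rab40b, and Rab4a 74.6% with Rab4b. In the Rab5 family Rab5c held 74.7%, Rab5a 15.4% and Rab5b 9.89%, and Rab1a held 67.6% against 32.4% for Rab1b. The Rab11 family was split into Rab11a at 40.1%, Rab11b at 30.7% and Rab25, its epithelial member, at 29.2%. Counted in reads these genes were nearly equal, with means of 24.4, 24.7 and 24.3 CPM. Short transcripts enter such TPM shares: Rab11a-204, of 261 bases, held 20.7% of Rab11a's TPM on 3.99% of its reads, and Rab5c-204 is described above. In the Rab3 family of regulated exocytosis, Rab3a held 59.4% and Rab3d, the form of exocrine secretory granules, 39.9%, while Rab3c had 0 reads in all 11 libraries.

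The split between paralogs relies on the quantifier telling similar sequences apart. The longest run of bases common to the coding sequences of Rab1a and Rab1b was 38 bases, the longest among the paralog pairs compared, and is shown for that reason.

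Rab1a and Rab1b: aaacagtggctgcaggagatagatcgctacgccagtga

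Such runs were rare. Of the distinct 31-base words in Rab1a transcripts 2.01% also occurred in another gene, in Rab11b 1.56%, and in most members none. Rab43 was the exception with 16.53%, shared with the overlapping gene Gm45140, and its value of 3.40 to 5.64 CPM is uncertain for that reason. The loci of Rab15, Rab24, Rab2b, Rab3a, Rab5a and Rab6a overlap a protein-coding gene on the opposite strand (Fntb, Prelid1, Tox4, Mpv17l2, Pp2d1 and Mrpl48). The library kit keeps strand, but whether the counting used it is not given in the sources used here, so that reads of such partners may not be told apart. The loci of Rab4a and Rab4b overlap a protein-coding gene on the same strand (Gm20388 and Gm21983), which strand cannot resolve. Neither partner was among the genes found to share their 31-base words.

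In the group of the ER and Golgi, 9 of 13 members were kept, 5 higher and 4 lower in Knockout, none called. Rab1a ranged from 92.1 to 104 CPM (median 98.3) in Knockout, and had 100.3, 96.1, 106, 92.2 and 107 CPM in Wild-Type 1 to 5, a log2 fold change of -0.04 ± 0.06. Its 95% interval ran from -0.17 to 0.10, so that changes of more than 1.5-fold lay outside it. The fold changes of Rab1b and Rab2a were -0.02 ± 0.07 and -0.09 ± 0.08.

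Rab6a, which governs transport from the Golgi towards the ER and the cell surface, was the member with the smallest p on the higher side. It lies on chromosome 7, 100607410 to 100641268 (GRCm38, plus strand). Its levels in Knockout 1 to 6 were 14.9, 13.2, 12.4, 11.8, 13.99 and 12.8 CPM, and those in Wild-Type 1 to 5 were 11.98, 11.9, 12.7, 10.96 and 10.2 CPM. In 4 Knockout libraries the level was above every Wild-Type library, and the groups overlapped in the other two. The log2 fold change was 0.20 ± 0.08 with an unadjusted p of 0.0355 and an edgeR adjusted p of 0.368, so that it did not pass. The adjusted p was 0.152 with edgeR on library totals and 0.253 with limma on log2(TPM + 1). Over the other alternatives it ran from 0.313 to 0.623. Relative to the median of all genes the fold change was 0.22 with library totals and 0.26 with TPM.

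The main Rab6a transcripts in the tables, Rab6a-201 and Rab6a-202, have the same length, 627 bases, and use one or the other of a pair of alternative exons. A shorter one, Rab6a-203, was not among the transcripts tested. Both of the main sequences are shown over bases 184 to 279 of the coding sequence, the stretch that holds every base at which they differ. The capitals mark those 30 differing bases, from GENCODE M21 on GRCm38, and the separation of these from each other rests on this stretch alone.

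Rab6a-201: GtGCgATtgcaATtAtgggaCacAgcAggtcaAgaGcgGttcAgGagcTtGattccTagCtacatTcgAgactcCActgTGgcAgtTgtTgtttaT
Rab6a-202: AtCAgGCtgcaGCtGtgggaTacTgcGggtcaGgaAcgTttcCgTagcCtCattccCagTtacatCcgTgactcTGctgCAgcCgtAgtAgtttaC

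Rab6a-201 was the main form. It took 78.4% of the gene's reads in Knockout (SD 2.35, n = 6) against 75.1% in Wild-Type (SD 3.31, n = 5). Rab6a-202 took 20.5% (SD 3.98) against 24.9% (SD 3.31), with 13.8% to 24.03% in Knockout libraries and 21.96% to 30.3% in the Wild-Type ones. The ranges overlapped, and the edgeR test of transcript usage gave an unadjusted p of 0.622 for Rab6a-202.

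Rab30, a Golgi GTPase, varied most between libraries of one genotype, with an SD of log2 CPM of 0.82. Its levels in Knockout 1 to 6 were 19.5, 68.1, 51.0, 55.8, 17.5 and 61.3 CPM. In Wild-Type 1 to 5 they were 99.1, 29.3, 80.3, 62.7 and 35.2 CPM. The low libraries, at 35.2 CPM or less, were Knockout 1 and 5 and Wild-Type 2 and 5, so that both genotypes had low and high libraries. The log2 fold change of -0.43 ± 0.44 had a 95% interval from -1.39 to 0.53 (unadjusted p = 0.344). Its size moved with single libraries: it was -0.19 without Wild-Type 1, -0.26 without Knockout 5, -0.27 without Knockout 1 and -0.61 without Wild-Type 2. The B cell markers, which were high in Wild-Type 2 and 5 and at 13.8 CPM in Knockout 1, were at 0.808 CPM, their lowest value, in Knockout 5.

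In the group of secretion and exocytosis, 7 of 13 members were kept, 3 higher and 4 lower in Knockout, none called. Rab3a, known from synaptic vesicles and other regulated secretion, had the smallest p of the group. It was at 9.88, 8.66, 12.3, 15.8, 12.7 and 18.7 CPM in Knockout 1 to 6 and at 19.5, 14.2, 15.5, 19.4 and 15.4 CPM in Wild-Type 1 to 5. In 4 Knockout libraries it was below all Wild-Type libraries, and Knockout 6 was among the highest. The log2 fold change was -0.37 ± 0.18 (unadjusted p = 0.0642, edgeR adjusted p = 0.430), and relative to the median of all genes it was -0.38 with library totals and -0.31 with TPM. The neuronal markers Snap25, Syt1, Stmn2 and Tubb3 summed to between 0.0735 and 0.456 CPM, none of the 4 reached the count minimum, and Snap25 and Syt1 were at 0 in some libraries and never above 0.0301 CPM.

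Rab3d ranged from 8.23 to 12.1 CPM (median 8.96) in Knockout and was at 9.42, 10.3, 12.2, 9.93 and 10.6 CPM in Wild-Type 1 to 5. All Knockout libraries but Knockout 5 lay below the Wild-Type values. The fold change was -0.17 ± 0.11 in log2 (edgeR adjusted p = 0.532), -0.11 without Wild-Type 3. Rab8a, which acts in delivery to the apical surface and the cilium, varied least of all members, with an SD of log2 CPM of 0.05 and a range of 20.7 to 23.3 CPM, and its fold change was -0.05 ± 0.06.

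Rab10, which takes GLUT4 vesicles to the surface of fat cells, was at 16.6 to 19.9 CPM (median 17.6) in Knockout and at 18.7, 16.2, 19.0, 17.6 and 18.7 CPM in Wild-Type 1 to 5. The groups overlapped, with 2 Knockout libraries above and 1 Wild-Type library below all of the other genotype. Its log2 fold change was -0.00 ± 0.07, with an interval from -0.16 to 0.15. Tbc1d4, the GAP that restrains Rab10 in that pathway, had a fold change of 0.04 ± 0.17. Rab27a, which docks granules at the plasma membrane, was at a low 2.60 TPM, and its fold change was 0.01 ± 0.19. Rab27b had 1 to 11 reads per library and was not kept.

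In the recycling group all 9 members were kept, 3 higher and 6 lower in Knockout. Rab17, an epithelial GTPase of recycling endosomes that takes part in transcytosis, had the lowest p of the whole set with TMM scaling. It lies on chromosome 1, 90958133 to 90969661 (GRCm38, minus strand), and its locus, with 149 to 338 reads per library, overlaps no other annotated gene. Its levels in Knockout 1 to 6 were 3.55, 5.39, 5.25, 7.004, 5.47 and 6.18 CPM. In Wild-Type 1 to 5 they were 11.1, 6.94, 10.6, 9.29 and 6.42 CPM. In 5 Knockout libraries Rab17 was below all Wild-Type libraries, and Knockout 4 alone overlapped, above Wild-Type 2 and 5.

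The log2 fold change of Rab17 was -0.70 ± 0.18, with a 95% interval from -1.10 to -0.30 (unadjusted p = 0.00217). Its edgeR adjusted p was 0.231 and did not pass, while with DESeq2 it was 0.0462 and passed. Over all alternatives the adjusted p ran from 0.0462 to 0.573. Relative to the median of all genes it was -0.70 with library totals and -0.55 with TPM, and leaving out 1 library at a time gave -0.80 to -0.59.

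Marker lists of several cell types leaned to 1 side between genotypes, with no marker called by edgeR. DESeq2 called 1 milk gene and 3 adipocyte markers. The lists of luminal markers and of milk genes went in opposite directions, with 2 of 7 and 1 of 11 at an unadjusted edgeR p under 0.05. The luminal epithelial markers summed to 736, 1009, 695, 636, 736 and 905 CPM in Knockout 1 to 6, and to 619, 509, 583, 926 and 573 CPM in Wild-Type 1 to 5. Of the 7 markers 6 had positive fold changes, also with library totals and TPM. The 11 milk genes all had negative fold changes with TMM scaling (median -0.27), 8 of them with library totals (median -0.08) and 7 with TPM (median -0.04). The milk genes summed to 542338 CPM in Knockout (SD 76348) against 655101 CPM in Wild-Type (SD 87646). The 6 myoepithelial markers (Krt14, Acta2 and others) all had positive fold changes under these 3 scalings (median 0.28 with TMM, 2 at an unadjusted p under 0.05), and their sums overlapped, from 455 to 633 CPM over the Knockout libraries and from 364 to 658 CPM over the Wild-Type ones. The 6 fibroblast markers (Col1a1, Dcn and others) were likewise all positive (median 0.35, 2 at p under 0.05), with Knockout sums of 273 to 653 CPM and Wild-Type sums of 206 to 461 CPM. The 5 T cell markers tested of 6 all had negative fold changes (median -1.27, 2 at p under 0.05), with sums of 1.71 to 6.10 CPM in Knockout and of 1.93, 10.03, 1.57, 6.47 and 21.6 CPM in Wild-Type 1 to 5.

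The B cell markers were highest in Wild-Type 2 and 5, which had the lowest Rab17 levels of their group. Other libraries went the other way: Wild-Type 4, at 15.8 CPM of B cell markers, had 9.29 CPM of Rab17, and Knockout 5, at 0.808 CPM, had 5.47 CPM. The skeletal muscle markers were highest in Knockout 1, which had the lowest Rab17 level of all. They were next highest in Wild-Type 1 (167 CPM), which had the highest Rab17 level, 11.1 CPM. Without Knockout 1 the Rab17 fold change was -0.59 (edgeR adjusted p = 0.328). What part the mix of cells has in these levels was not tested.

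Rab11a, of the slow recycling route, ranged from 23.3 to 28.1 CPM (median 25.7) in Knockout and was at 23.3, 20.9, 21.4, 26.3 and 23.0 CPM in Wild-Type 1 to 5. Its fold change was 0.15 ± 0.08 in log2 (unadjusted p = 0.0834). In TPM it was 0.38 relative to the median of all genes. Rab11a-204, a transcript of 261 bases, held 20.7% of the gene's TPM on 3.99% of its reads, and its part in that value was not tested. The related Rab11b and Rab25 had fold changes of -0.04 ± 0.08 and -0.16 ± 0.11. Relative to the median of all genes, these 3 stood at 0.38, 0.04 and -0.09 in TPM.

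Rab4a, of the fast recycling route, ranged from 13.1 to 22.1 CPM (median 18.5) in Knockout and was at 26.2, 18.5, 23.0, 23.0 and 18.8 CPM in Wild-Type 1 to 5. For Rab4a the log2 fold change was -0.24 ± 0.13 (unadjusted p = 0.0868), and -0.15 without Knockout 1. Rab35, which also returns cargo from endosomes, was at 7.10 to 9.95 CPM (median 7.66) in Knockout and at 7.36, 7.10, 6.37, 7.99 and 5.97 CPM in Wild-Type 1 to 5, a fold change of 0.19 ± 0.11 (unadjusted p = 0.105), and 0.12 without Knockout 2. Rab15 ranged widely, from 25.9 to 54.4 CPM over the Knockout libraries and 27.9 to 50.6 CPM over the Wild-Type ones, with nearly equal means (fold change -0.01 ± 0.20).

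**Figure D3:**
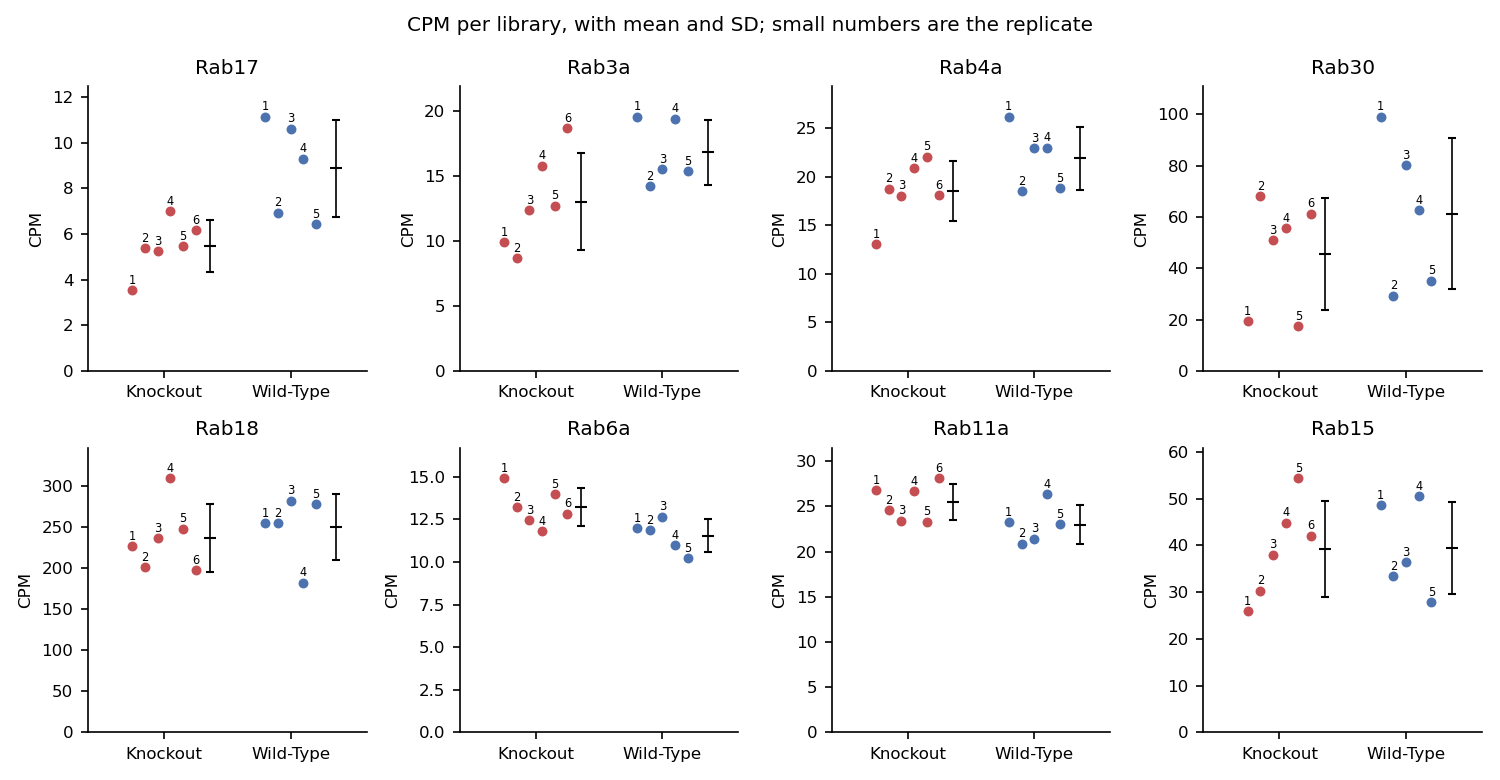
CPM (y axis, from 0) of 8 Rab genes in each of the 6 Knockout and 5 Wild-Type libraries, with the mean and SD of each genotype; the small number at a point is its replicate. Rab17 and Rab3a sit lower in most Knockout libraries and Rab6a higher, Rab30 has low and high libraries in both genotypes, and no panel separates the genotypes fully.

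The early endosome group had the narrowest range of fold changes, though not the smallest median size. All 6 members were kept, 4 higher and 2 lower in Knockout, and their fold changes ran from -0.03 to 0.14. Rab5a, which controls fusion of endocytic vesicles, ranged from 16.1 to 20.02 CPM (median 17.4) in Knockout and was at 16.6, 15.001, 17.8, 16.98 and 14.04 CPM in Wild-Type 1 to 5. For Rab5a it amounted to 0.14 ± 0.08 in log2 (unadjusted p = 0.113). Rab5b and Rab5c had -0.02 ± 0.08 and -0.03 ± 0.06. The summed level of the group was 91.0 CPM for Knockout (SD 1.06, n = 6) and 89.4 CPM for Wild-Type (SD 2.90, n = 5).

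Of the late endosomes and lysosomes, lysosome-related organelles included, 10 of 13 members were kept, 4 higher and 6 lower in Knockout. Rab7 was at 59.7 to 67.3 CPM (median 64.2) in Knockout and at 73.4, 61.3, 64.8, 63.7 and 57.6 CPM in Wild-Type 1 to 5, a log2 fold change of 0.00 ± 0.07. Rab38, which serves lysosome-related organelles such as melanosomes, had the largest positive fold change of the set with TMM scaling, 0.63 ± 0.38, but on 10 to 34 reads per library. Its 3 highest Knockout libraries were at 1.06, 1.02 and 0.911 CPM, and Wild-Type 2 reached 0.836 CPM. The unadjusted p was 0.121, and the interval ran from -0.19 to 1.44. Rab32, its closest relative, had a fold change of -0.00 ± 0.19.

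In the last group, of lipid droplets, cilia and other sites, all 5 members were kept, 1 higher and 4 lower in Knockout, none called. The low-count Rab23 had a fold change of -0.24 ± 0.32, which was -0.0215 without Wild-Type 2, -0.09 without Knockout 5 and -0.37 without Wild-Type 3. Rab18 was at 227, 201, 236, 309, 248 and 197 CPM in Knockout 1 to 6 and at 255, 255, 282, 182 and 277 CPM in Wild-Type 1 to 5. Knockout 4 was the highest library and Wild-Type 4 the lowest, so that the groups overlapped. Over all 11 the log2 fold change was -0.08 ± 0.13 (edgeR adjusted p = 0.836), with an interval from -0.37 to 0.21. Without 1 library at a time it ran from -0.17 (without Knockout 4 or Wild-Type 4) to -0.0285 (without Knockout 6), and it was -0.0345 without Knockout 2, -0.0355 without Wild-Type 3 and -0.0425 without Wild-Type 5. The edgeR adjusted p was 0.519 or more in each of these fits.

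The count minimum cut off no gene with a sizeable level. Just inside it were Rab31 (6 to 24 reads, 10 or more in 6 libraries) and Rab42 (6 to 32 reads, 9 libraries). Just outside were Rab26 and Rab37, each with 0 to 16 reads and 10 or more in 4 libraries. The 13 genes not kept were these and Rab3b, Rab3c, Rab6b, Rab9b, Rab19, Rab27b, Rab33a, Rab36, Rab39, Rab39b and Rab44. None of them exceeded 16 reads in any library.

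The tables also give reads per transcript. In 17 Rab genes 37 transcripts could be tested for a change in their share of the gene's reads. None was called by edgeR's diffSpliceDGE at an adjusted p under 0.05, where 0.0200% of all transcripts tested were, and 1 (2.70%) had an unadjusted p under 0.05, beside 0.902% of all.

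That transcript was Rab7-206, a short form of 267 bases. It took 2.20% to 5.06% of Rab7 reads in Knockout libraries, and 1.78%, 0%, 0%, 1.49% and 3.57% in Wild-Type 1 to 5. Its usage was higher in Knockout by 1.36 on the log2 scale (unadjusted p = 0.0479, edgeR adjusted p = 1.00), on 0 to 91.7 estimated reads per library.

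The next p-values belonged to Rab13-202 (0.317), Rab7-207 (0.383) and Rab18-203 (0.419). Rab13-202 took 24.5% to 41.7% of Rab13 reads in Knockout and 27.3%, 16.9%, 0%, 20.1% and 31.1% in Wild-Type 1 to 5. The forms of Rab18 kept narrow shares: Rab18-205 took 84.4% to 86.1% and Rab18-201 13.3% to 15.4% of Rab18 reads in the 11 libraries.

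**Figure D4:**
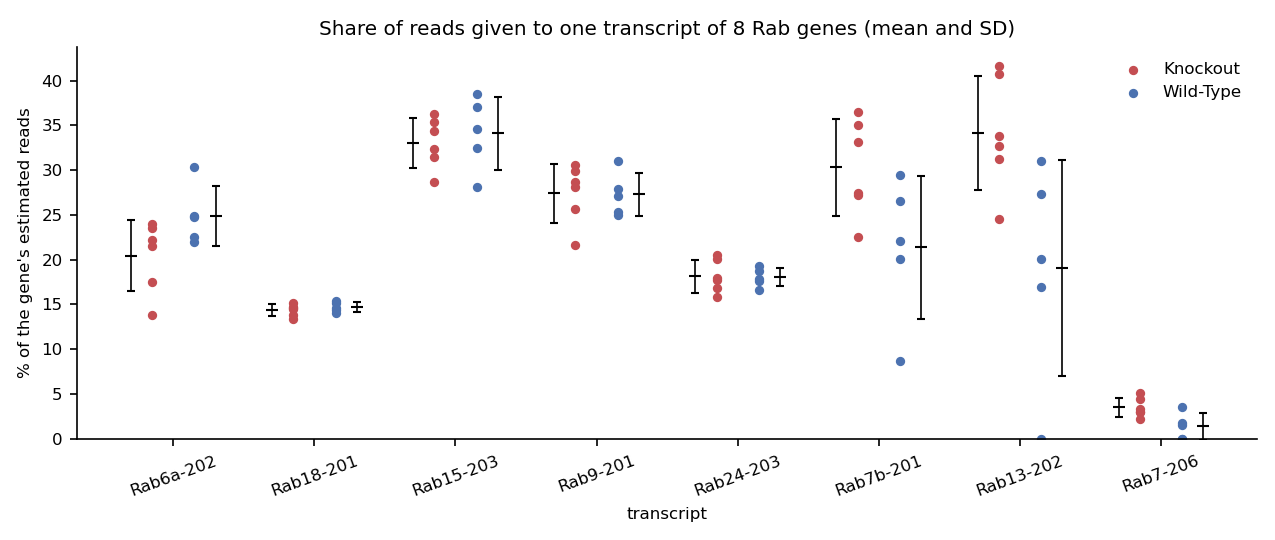
Share of a gene's estimated reads given to 1 of its transcripts (y axis, %) for 8 Rab genes, with 1 point per library, coloured by genotype, and the mean and SD beside them. The shares of Rab18-201 are narrow, from 13.3% to 15.4%, and those of Rab13-202 and Rab7-206 reach 0% in Wild-Type libraries.

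Of 133 listed regulators and effectors of Rab proteins 129 were tested, and none was called by edgeR or by DESeq2. At an unadjusted p under 0.05 there were 17, or 13.2%, 4 higher and 13 lower in Knockout, beside 12.5% of all genes tested, so that their share was near the background. By class these were 0 of 7 genes for the lipid anchor and GDI, 8 of 42 GEFs, 5 of 32 GAPs and 4 of 48 effectors. The split of signs was 54 higher and 75 lower with TMM scaling, and 102 and 27 with library totals.

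Of the machinery that all Rab proteins share, Rabac1, a membrane receptor for prenylated Rab proteins, was at 105 TPM and Gdi2 at 56.3 TPM. The subunits of the transferase that adds the lipid anchor, Rabggtb and Rabggta, were at 21.6 and 6.09 TPM. The most abundant GEF was Rab3ip (Rabin8), which activates Rab8, at 45.9 TPM, and the most abundant effector was Rph3al (Noc2), which binds Rab3 and Rab27, at 50.8 TPM. Mlph, melanophilin, an effector of Rab27a, was at 19.8 TPM, above the 2.60 TPM of Rab27a itself.

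Tbc1d30, a GAP, had the smallest p of these genes and was the only one to separate the genotypes. It was at 8.21, 8.42, 8.62, 8.03, 8.74 and 8.88 CPM in Knockout 1 to 6 and at 11.1, 9.82, 16.3, 10.1 and 10.3 CPM in Wild-Type 1 to 5. Every Wild-Type library lay above every Knockout library, Wild-Type 3 farthest. This gave a log2 fold change of -0.44 ± 0.12 (unadjusted p = 0.00361, edgeR adjusted p = 0.259), and without 1 library at a time it ran from -0.49 to -0.28, the latter without Wild-Type 3.

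Rabep2, an effector of Rab5 (rabaptin family), ranged from 9.77 to 12.6 CPM (median 11.3) in Knockout and was at 13.9, 15.3, 12.3, 13.8 and 13.2 CPM in Wild-Type 1 to 5, a log2 fold change of -0.29 ± 0.09 (unadjusted p = 0.00598). Rin3, a GEF for Rab5 proteins, was at 2.68 to 3.09 CPM (median 2.78) in Knockout and at 3.40, 4.85, 3.08, 3.43 and 3.79 CPM in Wild-Type 1 to 5, with -0.39 ± 0.13 (unadjusted p = 0.00800). The fold changes of the Rab5 genes themselves lay between -0.03 and 0.14. Of the other 3 genes named for the smallest p-values, Rabgap1, a GAP, had 0.29 ± 0.10, Trappc9, of a tethering complex with GEF activity, -0.20 ± 0.07, and Sytl1, an effector of Rab27, -0.26 ± 0.09.

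The largest fold changes in the list moved with lymphocyte markers. Tbc1d10c, Dennd1c and Unc13d, chosen after their values were seen, had -1.89 ± 0.77, -1.28 ± 0.52 and -1.26 ± 0.46. Tbc1d10c was at 0.315, 6.89, 0.597, 3.16 and 9.51 CPM in Wild-Type 1 to 5 and at 0.398 to 2.35 CPM in Knockout, where Knockout 1 was highest. Dennd1c and Unc13d were also highest in Wild-Type 2, 4 and 5, the Wild-Type libraries with 15.8 to 69.8 CPM of B cell markers. The part of lymphocytes in these values was not tested.

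**Figure D5:**
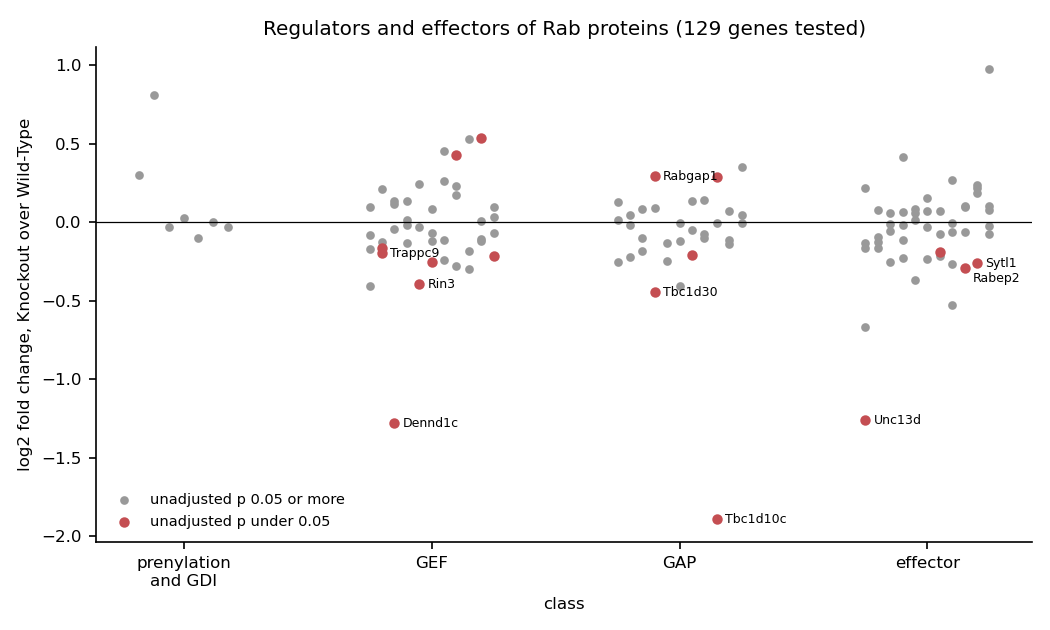
Log2 fold change of Knockout over Wild-Type (y axis, edgeR with TMM scaling) for 129 regulators and effectors of Rab proteins, 1 point per gene, in 4 classes (x axis). Red points had an unadjusted p under 0.05 (17 genes); names mark the 6 genes with the smallest p and the 3 genes farthest below 0, and with library totals 102 of the 129 values are positive.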

How the data were processed

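Transcript abundance was quantified by the authors with Salmon 1.3.0 on GRCm38.p6, and DESeq2 1.28.1 was also used, per the submitters' processing notes. Per the file headers, each deposited table gives per transcript its length and effective length in bases, its TPM and its estimated read count (58204 transcripts). Lengths matched the coding sequence for 93.9% of transcripts, so that few held untranslated parts. By GENCODE M21 identifiers the deposited estimated counts were added up within each gene and rounded; 752 unmatched transcripts with 0.195% to 0.265% of the reads were left out. The deposited TPM were summed likewise. A further deposited table of normalized gene values was not used.

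The test was edgeR 4.0.16 (R 4.3.3; quasi-likelihood, robust, TMM, genotype only), after tests on simulated data. Benjamini-Hochberg adjustment was over all 12813 genes with 10 or more reads in 5 or more libraries, with a threshold of 0.05. Transcript usage was tested with diffSpliceDGE over 9978 transcripts. Alternatives were RLE and upper-quartile scaling, milk genes removed, no low-count filter, filterByExpr, a transcript length offset, DESeq2 1.42.0, limma-voom (limma 3.58.1), a replicate block and leaving out each library; library totals, limma on log2(TPM + 1) and the unblocked fit of 10 libraries were chosen after seeing the data. Intervals are 95%.

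Members, roles, regulator lists and markers were chosen with earlier results of these data known. Genes were named by a fixed rule: the 8 smallest p-values, any call, the 8 highest TPM, the 3 largest spreads, those nearest the count minimum, members of known role, the 6 regulators and the 4 Rab transcripts with the smallest p-values. Sequences are from GENCODE M21.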

Additional observations from a re-analysis of the deposited data

Results flagged for a closer look

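In 6 of 92 sets of values (each kept Rab gene in each genotype) 1 library stood apart from the rest of its genotype by Dixon's criterion, where chance gives about 4.6, since it marks about 1 set in 20. Rab18 was at 182.2 CPM in Wild-Type 4, while the other Wild-Type libraries lay between 254.7 and 282.0 CPM. Rab35 was at 9.955 CPM in Knockout 2 (others 7.097 to 7.814), and Rab11b was at 28.88 CPM in the same library (others 22.70 to 24.18). Rab3d was at 12.12 CPM in Knockout 5 (others 8.226 to 9.102), and Rab5c was at 44.77 CPM in that library too (others 41.27 to 42.58). Rab38 was at 0.8357 CPM in Wild-Type 2 (others 0.3140 to 0.4563), a value that rests on 20 reads.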

How the results depend on the processing

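The count of called genes was 7, and it moved to 148 with DESeq2, 3 with limma on log2(TPM + 1) and 0 with a replicate block, and from 2 to 23 when 1 library was left out (most without Knockout 2). The Rab count stayed at 0 except with DESeq2, which called 1, Rab17. Regulators and Rab transcripts stayed at 0 in every alternative run. Same-numbered libraries did not deviate together (correlations from -0.22 to 0.18, none best with its own number). No pairing by number was seen, but a litter or batch shared by such libraries is not excluded by this. The replicate block, on 10 libraries, called 0 Rab genes and gave Rab17 -0.73, and the same 10 libraries without the block called 8 genes. Fold changes near 0 changed sign. Rab10 became 0.0023 with RLE, 0.0024 with upper-quartile scaling, 0.0038 without milk genes, 0.0010 with DESeq2, 0.0115 with the replicate block and 0.0121 on the same libraries without it, and Rab5c became 0.0119 with the length offset. Without 1 library, Rab10 ran from -0.0386 to 0.0249, Rab1b from -0.0538 to 0.0192, Rab15 from -0.1166 to 0.1047, Rab31 from -0.0772 to 0.2934, Rab7 from -0.0314 to 0.0579 and Rab27a from -0.0914 to 0.1664. The cause was not tested. The members with at most 34 reads in any library, Rab31, Rab42, Rab38, Rab8b and Rab23, had standard errors of 0.22 to 0.38, and Rab30, with 476 to 2830 reads, had 0.44.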
